A study of Mus musculus with 97 samples.

Results

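Sparse Cdk5r1 mutant cells of the mouse cerebral cortex were profiled around birth, by comparing GFP+ cells sorted at P0, the day of birth, with GFP+ cells sorted at E16, embryonic day 16. Members were the libraries labelled with the genotype MADM-11 GT/TG,Cdk5r1;Emx1-Cre (Cdk5r1-MADM), a mosaic deletion on the CD1 strain, at either age, of which 13 of the series' 97 libraries entered: 6 of 6 at P0 and 7 of 8 at E16. In MADM (mosaic analysis with double markers), Cre-driven recombination between homologous chromosomes during cell division gives sparse GFP+ daughter cells that are homozygous for the mutation distal to the cassette, here on chromosome 11. Both ages carried the same alleles: the MADM-11 cassettes, the mutant Cdk5r1 allele and Emx1-Cre, which acts in the dorsal telencephalic progenitors that give rise to cortical projection neurons, to cortical astrocytes and to part of the oligodendrocyte lineage. The tissue around the sparse mutant cells was heterozygous for Cdk5r1, and each library held RNA of 2000 GFP+ cells sorted from the cortex of 1 animal, and no marker besides GFP is named for the gate. The age change was also set beside those of control-MADM, wild type for Cdk5r1 with the same cassettes and Cre, and of KO-Cdk5r1-MADM, which carries the mutant Cdk5r1 allele on both the GT and the TG chromosome, again with Emx1-Cre. Both were also CD1, and in the latter mutant GFP+ cells sat in a cortex whose cells all lacked Cdk5r1.

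Cdk5r1 encodes p35, the neuronal activator of the kinase CDK5, which phosphorylates cytoskeletal and adhesion proteins while a neuron migrates along radial glia. In the embryonic cortex, radial glia produce intermediate progenitors and these produce projection neurons, deep-layer neurons before upper-layer neurons. Around birth neurogenesis ends, the radial glial lineage turns to astrocytes and oligodendrocyte precursors, and young neurons stop migrating, grow axons and dendrites and begin to express synaptic receptors.

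Reads on genes numbered from 2356133 to 5692309 per library at P0 (median 4249120.5) and from 2768307 to 5267196 at E16 (median 4476377), and the 8th library labelled E16 was left out because 22.4% of its reads aligned to a single place. Between 18943 and 21062 genes had at least 1 read in a P0 library and between 19089 and 20190 in an E16 library. All 13 libraries belonged to the same mitochondrial class, defined by which of mt-Nd3 and Gm28438, a nuclear copy of mitochondrial sequence, took the reads. Sex was assigned from the level of Xist against that of Y-linked genes. By this measure both sexes were present at each age, with 3 female and 3 male libraries at P0 and 3 female and 4 male libraries at E16. P0 replicate 4 stood apart from the other libraries on the second principal component. P0 replicate 3 had a summed level of endothelial markers of 605 CPM (counts per 1000000 reads on genes), against 15.5 to 49.8 CPM in the other 5 P0 libraries. Levels of genes below are CPM after scaling by a trimmed mean (TMM), summed marker levels are CPM without this scaling, and "called" means a Benjamini-Hochberg adjusted p under 0.05 in edgeR's quasi-likelihood test of P0 against E16 over all genes tested. The labels name no litters, so p-values measure the spread between these cortices.

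Cdk5r1 itself differed between the ages by less than the spread between libraries. Its level ranged from 59.9 to 75.9 CPM at E16 (median 68.7) and from 52.7 to 120.1 CPM at P0 (median 65.3). P0 replicate 4 was the high library, and the ages overlapped (log2 fold change 0.08, standard error 0.148, adjusted p = 0.708). Reads from exon sequence left in the mutant allele are counted with the gene, so its level checks the labels in part. In a fit over the libraries of all 3 genotypes, the control-MADM libraries lay between 111 and 239.8 CPM at E16 and between 134 and 251 CPM at P0, and every Cdk5r1-MADM library was below the lowest control-MADM library of its age.

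Across all genes, 4418 of 12821 genes tested were called between P0 and E16 (34.5%), 2397 of them higher at P0 (18.7% of genes tested) and 2021 lower (15.8%). The larger changes were mostly increases, since 1064 called genes were higher by more than 1 on the log2 scale (8.30%) and 231 were lower by more than 1 (1.80%). For 1949 genes (15.2%) the ranges of the 2 ages did not overlap. The median log2 fold change over all genes tested was -0.01. The counts for gene lists below are read against these shares, and each list's median against this median.

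**Figure D1:**
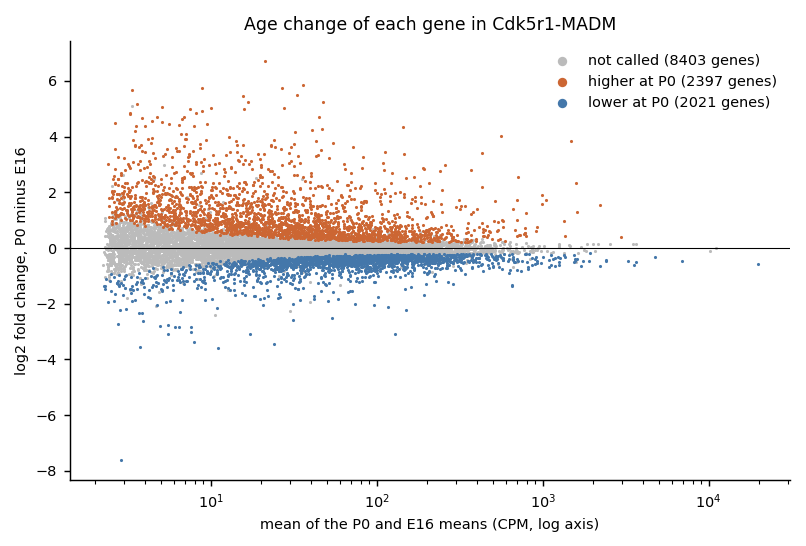
Mean of the P0 and E16 mean levels in CPM (x axis, log axis) against the log2 fold change of P0 over E16 (y axis) for the 12821 genes tested, with the 2397 genes called higher and the 2021 genes called lower colored. Called increases extend to 6.72, the value of Gpr17, and called decreases to -7.60, the fitted value of Neurog1, which has no reads at P0 and depends on the prior count.

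The 8 increases with the smallest adjusted p values among those over 1 on the log2 scale included Serpine2, Hepacam, Smpdl3a, Atp1b1, Slc1a3, Sparcl1 and Mlc1. Serpine2, a secreted inhibitor of serine proteases, ranged from 7.91 to 21.1 CPM at E16 (median 12.0) and from 226 to 339 CPM at P0 (median 269.7). The lowest P0 library was far above the highest E16 library (log2 fold change 4.36, standard error 0.156, adjusted p = 6.71e-14). Hepacam, an adhesion protein that anchors the astrocyte membrane protein Mlc1, ranged from 10.8 to 20.3 CPM at E16 (median 15.4) and from 118 to 172 CPM at P0 (median 152), a change of 3.27 on the log2 scale (standard error 0.125, adjusted p = 6.71e-14). Mlc1 itself ranged from 53.9 to 79.97 CPM at E16 (median 71.2) and from 294 to 406 CPM at P0 (median 349), a log2 fold change of 2.32. Atp1b1, a subunit of the sodium-potassium pump, rose by 2.55 on the log2 scale and Smpdl3a, a phosphodiesterase, by 2.27. The P0 and E16 ranges did not overlap for any of these genes.

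The 8 decreases chosen in the same way were Rasgef1b, Fezf2, Fzd1, Cntn2, Mfng, Dusp14, Neurod1 and Bcl11b. Rasgef1b, an exchange factor for Ras-family GTPases, ranged from 100.2 to 142 CPM at E16 (median 113) and from 26.0 to 32.5 CPM at P0 (median 28.7). Every P0 library was below every E16 library (log2 fold change -2.02, standard error 0.11, adjusted p = 7.02e-12). Fzd1, a Wnt receptor, fell by 1.59 on the log2 scale. Mfng, which modifies Notch receptors with sugars, fell by 1.21, and Dusp14, a phosphatase of MAP kinases, fell by 1.55. The ages did not overlap for any of the 8.

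Astrocyte genes were higher at P0, as were most genes of apical progenitors (radial glia), of which 25 of 38 were called higher, 3 lower and 10 not called. All 8 astrocyte markers that were tested rose, with a median log2 fold change of 2.84 and no overlap between the ages for any of them. Aqp4, the water channel of astrocyte endfeet, ranged from 0.647 to 3.60 CPM at E16 (median 1.11) and from 38.5 to 96.8 CPM at P0 (median 61.6). It was near the detection limit in every E16 library and clearly present in every P0 library (log2 fold change 5.50, standard error 0.268, adjusted p = 2.74e-12). Gfap, the intermediate filament of astrocytes, ranged from 4.25 to 15.7 CPM at E16 (median 5.87) and from 44.9 to 114 CPM at P0 (median 83.5), and E16 replicate 7 was the highest of the E16 libraries (log2 fold change 3.52, standard error 0.29, adjusted p = 1.49e-07). Aldh1l1, a folate enzyme used as a pan-astrocyte marker, rose by 2.21, Sparcl1, a secreted matricellular protein, by 2.98, and Apoe, the lipid carrier of astrocytes, by 3.84.

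Of 38 apical progenitor (radial glia) genes, 25 rose, 3 fell and 10 were not called, and their median log2 fold change was 0.75. Slc1a3, the glial glutamate transporter GLAST, on chromosome 15 from 8634124 to 8710764 of GRCm38, ranged from 183 to 242 CPM at E16 (median 211) and from 1006 to 1536 CPM at P0 (median 1106). All 6 P0 libraries lay above all 7 E16 libraries (log2 fold change 2.55, standard error 0.111, adjusted p = 2.84e-13). Fabp7, a fatty acid binding protein of radial glia, rose by 1.54, and Ednrb, an endothelin receptor, by 2.32. Astrocyte markers rose in the same libraries, and whether radial glia or astrocytes carried these increases was not tested. Sox2, a transcription factor of neural stem cells, ranged from 58.5 to 102 CPM at E16 (median 92.7) and from 87.7 to 234 CPM at P0 (median 173) and the ages overlapped (log2 fold change 0.92, standard error 0.182, adjusted p = 0.000907). The 3 genes that fell were the intermediate filament gene Vim (log2 fold change -0.79), the cortical selector gene Lhx2 (-0.50) and Cdon, a co-receptor of hedgehog signaling (-0.50). Pax6, a transcription factor that defines radial glia, was not called, with levels from 70.7 to 114 CPM at E16 (median 102) and from 86.8 to 115 CPM at P0 (median 104), a change of 0.08 on the log2 scale (adjusted p = 0.577).

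The oligodendrocyte lineage had the highest median change of all lists. Of 9 markers tested, 8 rose and 1 was not called, and the median log2 fold change was 4.71. Pdgfra, the growth factor receptor of oligodendrocyte precursors, on chromosome 5 from 75152292 to 75198215, ranged from 0 to 2.65 CPM at E16 (median 1.06) and from 46.6 to 100.5 CPM at P0 (median 68.8). At least 1 E16 library had no Pdgfra read, whereas all P0 libraries had it (log2 fold change 5.86, standard error 0.37, adjusted p = 2.9e-09). Cspg4, the proteoglycan NG2 of the same precursors, ranged from 0.845 to 4.74 CPM at E16 (median 3.45) and from 61.9 to 124 CPM at P0 (median 81.2), a change of 4.71 on the log2 scale (standard error 0.234, adjusted p = 5.4e-12). Lhfpl3 ranged from 0.216 to 0.894 CPM at E16 (median 0.446) and from 13.1 to 33.0 CPM at P0 (median 17.2), and P0 replicate 1 was the highest library. Olig2, the transcription factor that specifies the lineage, ranged from 9.09 to 54.9 CPM at E16 (median 18.3) and from 165 to 248 CPM at P0 (median 187), a change of 3.04 on the log2 scale (standard error 0.332, adjusted p = 1.53e-05). Sox10, another transcription factor of the lineage, rose by 5.23, and Gpr17, a receptor of committed precursors, rose by 6.72, the largest increase of any gene tested. The gene that was not called was Mbp, a protein of the myelin sheath, for which the log2 fold change was 0.47 (edgeR adjusted p = 0.0699). Sox10, Gpr17, Mbp and Apoe were named after their values were seen.

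**Figure D2:**
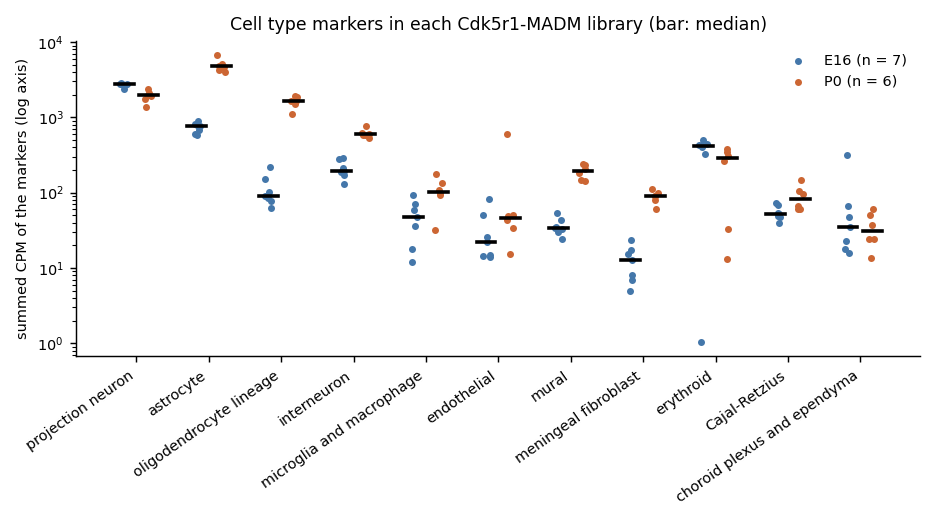
Summed CPM of the markers of each cell type (y axis, log scale) in the 7 E16 and the 6 P0 libraries, with each library as a point and the median as a bar. Astrocyte, oligodendrocyte lineage, interneuron, mural and meningeal sums are higher in every P0 library than in every E16 library, whereas the projection neuron sum is lower in every P0 library.

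Projection neuron markers, which define the cells that the sort was made for, were detected at both ages in every library. Their summed level ranged from 2396 to 2886 CPM at E16 (median 2748) and from 1394 to 2381 CPM at P0 (median 1966), and the ranges did not overlap. Of the 10 markers, 8 fell, 1 rose and 1 was not called, with a median log2 fold change of -0.69. The astrocyte sum rose from a median of 761 CPM (577 to 888) to 4779 CPM (3967 to 6728) and the oligodendrocyte lineage sum from 90.9 CPM (62.3 to 218) to 1632 CPM (1108 to 1941). In these bulk samples, fewer cells of a type and less RNA per cell cannot be told apart, and these shifts in glial and neuronal markers lie in the same libraries as every age change given here. Their part in the other changes was not tested.

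Other cell types contributed less of the summed marker level or varied by library. The mural sum, over markers of pericytes and smooth muscle, was 24.1 to 53.8 CPM at E16 and 142 to 240 CPM at P0; without Cspg4, which oligodendrocyte precursors also express, it was 23.3 to 50.9 CPM and 59.4 to 163 CPM. Of 6 mural genes tested, 5 rose, namely Cspg4, Pdgfrb (1.61), Notch3 (1.44), Rgs5 (3.04) and Acta2 (2.33). The endothelial sum was 14.1 to 83.6 CPM at E16 and 15.5 to 605 CPM at P0, and its median log2 fold change over 7 genes was 2.48, or 0.25 without P0 replicate 3. Its only called gene was Esam, an adhesion molecule of endothelial cells, which ranged from 0 to 6.02 CPM at E16 (median 1.51) and from 2.09 to 50.9 CPM at P0 (median 4.34), and the call was lost without any of 8 libraries (E16 replicates 1, 3, 4, 6, 7 and 8 or P0 replicates 3 and 6; adjusted p up to 0.193). The microglia and macrophage sum overlapped, at 12.1 to 93.4 CPM and 31.8 to 177 CPM, with P2ry12 (2.69) among the 2 genes called higher of 8 tested. Of 3 meningeal fibroblast genes tested, Pdgfra and Col1a2 (1.43) were called, and for Col1a2 the call was lost without any of 5 libraries (E16 replicates 2 and 6 or P0 replicates 3, 5 and 6; adjusted p up to 0.0992). The sum of the meningeal markers without Pdgfra was 3.37 to 21.4 CPM at E16 and 10.2 to 32.1 CPM at P0. The erythroid sum overlapped, at 1.05 to 496 CPM and 13.2 to 377 CPM. Calb2, a calcium-binding protein listed for Cajal-Retzius cells, rose by 1.07 with overlapping ranges. Foxj1, the master regulator of motile cilia listed for choroid plexus and ependyma, was called at 0.63, and the call was lost without any of 5 libraries (E16 replicates 2, 4 and 6 or P0 replicates 3 and 5; adjusted p up to 0.0775). The markers with 0 reads in every library were Kl at both ages, Agt at E16 and Foxd1, Slc4a1 and Ebf3 at P0.

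**Figure D3:**
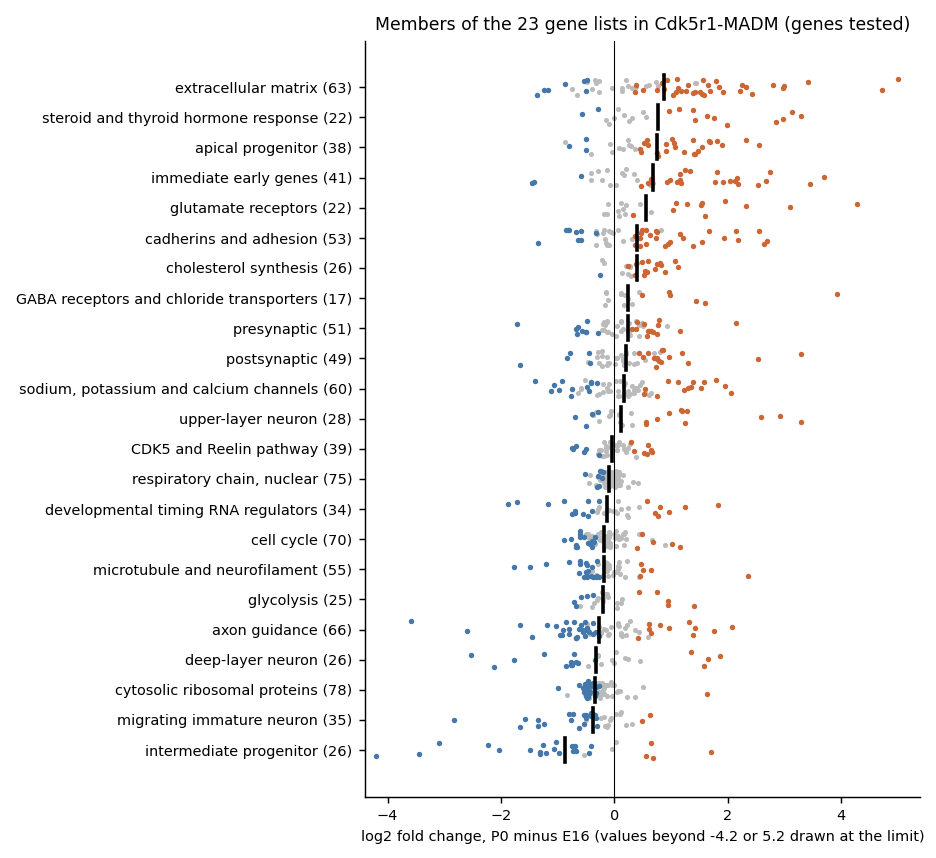
Log2 fold change of P0 over E16 (x axis) for the genes tested of the 23 lists other than cell type markers (y axis, ordered by median), with each gene as a point, genes called higher in orange, genes called lower in blue, others gray, and the median as a bar. The extracellular matrix list has the highest median, 0.88, and the intermediate progenitor list the lowest, -0.86; Neurog1 and other values past the axis are drawn at its limit.

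Most intermediate progenitor genes fell. Of 26 genes tested, 19 fell, 4 rose and 3 were not called, with a median log2 fold change of -0.86. Neurog2, the proneural transcription factor of the neurogenic lineage, on chromosome 3 from 127633135 to 127635631, ranged from 176 to 278 CPM at E16 (median 222) and from 10.1 to 54.3 CPM at P0 (median 25.3). The lowest E16 library was above the highest P0 library (log2 fold change -3.09, standard error 0.32, adjusted p = 9e-06). Eomes, the factor that defines intermediate progenitors, ranged from 111 to 175 CPM at E16 (median 164) and from 12.3 to 65.0 CPM at P0 (median 38.4), again without overlap (log2 fold change -2.04, standard error 0.274, adjusted p = 5.91e-05). Neurog1, a close relative of Neurog2, had no reads in any P0 library and ranged from 3.22 to 8.79 CPM at E16 (median 6.04); against a floor of 3 counts per P0 library it was at least 7.87-fold lower at P0. Cdkn1c, an inhibitor of the cell cycle, fell by 1.03 on the log2 scale, and Gadd45g, a stress-response gene of differentiating progenitors, fell by 0.98. The 4 genes that rose were Slco1c1, a transporter of thyroid hormone (1.70), the Notch ligand Dll3 (0.68), the antiproliferative gene Btg2 (0.64) and the chromatin remodeler Chd7 (0.56). Neurog1 and Chd7 were named after their values were seen.

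More cell cycle genes fell than rose, and most were not called. Of 70 genes, 18 fell, 5 rose and 47 were not called, with a median log2 fold change of -0.19. The share that fell was 25.7%, against 15.8% of all genes tested, and the share that rose 7.14%, against 18.7%. Bub1b, a spindle checkpoint kinase, ranged from 25.9 to 44.6 CPM at E16 (median 40.5) and from 14.5 to 25.1 CPM at P0 (median 21.1), a change of -0.88 on the log2 scale (standard error 0.171, adjusted p = 0.000351). Cdc20, which activates the anaphase-promoting complex, fell by 0.67 with overlapping ranges, and Cdk4, the kinase partner of D-type cyclins, fell by 0.61 without overlap. Mki67, the proliferation marker, was not called, with levels from 6.47 to 20.1 CPM at E16 (median 9.59) and from 4.53 to 11.1 CPM at P0 (median 7.94) (edgeR adjusted p = 0.21). Top2a, a topoisomerase of dividing cells, was not called either, at a log2 fold change of -0.34 (adjusted p = 0.0596). The genes that rose were the D-type cyclins Ccnd2 (1.02) and Ccnd1 (1.16), Rrm2, a subunit of ribonucleotide reductase (0.48), Cdk6, another kinase partner of D-type cyclins (0.40), and E2f2, a transcription factor of cell cycle entry (0.68). Ccnd2 ranged from 403 to 506 CPM at E16 (median 466) and from 766 to 1298 CPM at P0 (median 879.9), and P0 and E16 did not overlap. The call of Cdk6 was lost without P0 replicate 4 (adjusted p = 0.0548), and for E2f2 the call was lost without any of 8 libraries (E16 replicates 2, 3, 4, 7 and 8 or P0 replicates 1, 2 and 4; adjusted p up to 0.201).

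Promoters of the cell cycle genes were searched for the CHR (cell cycle genes homology region), the letters TTTGAA on either strand, because many mitotic genes carry this element close to the start of transcription. In RefSeq promoters of GRCm38.p6, taken as the 250 bases before the start, 15 of the 18 genes called lower had an entry and 7 of these 15 held the letters (46.7%): Cdk1, Ccnb2, Cdc20, Ube2c, Prc1, Ect2 and Ncapd2. Of the 58 cell cycle genes with an entry, called or not, 15 held them (25.9%), and of all 27025 genes with an entry, 4934 did (18.3%). A match of 6 letters is a description and not a binding site. The promoters of Cdk1, the mitotic kinase, which fell by 0.42, of its partner Ccnb2, which fell by 0.60, and of Cdc20 are printed because all 3 genes were called lower and hold the letters. They lie on the minus strand at chr10:69352913-69353162, chr9:70421555-70421804 and chr4:118437344-118437593, read 5′ to 3′, and capitals mark each match of TTTGAA or of its reverse complement TTCAAA.
Cdk1: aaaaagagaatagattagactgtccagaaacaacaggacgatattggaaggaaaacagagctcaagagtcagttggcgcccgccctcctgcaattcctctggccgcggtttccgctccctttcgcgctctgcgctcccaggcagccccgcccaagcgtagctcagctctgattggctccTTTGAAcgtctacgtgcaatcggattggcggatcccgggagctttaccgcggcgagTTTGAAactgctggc
Ccnb2: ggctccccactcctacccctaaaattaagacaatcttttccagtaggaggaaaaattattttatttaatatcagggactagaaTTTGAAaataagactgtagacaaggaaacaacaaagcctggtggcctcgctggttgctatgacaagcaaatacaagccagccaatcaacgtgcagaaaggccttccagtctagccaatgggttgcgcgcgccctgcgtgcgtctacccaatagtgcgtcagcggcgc
Cdc20: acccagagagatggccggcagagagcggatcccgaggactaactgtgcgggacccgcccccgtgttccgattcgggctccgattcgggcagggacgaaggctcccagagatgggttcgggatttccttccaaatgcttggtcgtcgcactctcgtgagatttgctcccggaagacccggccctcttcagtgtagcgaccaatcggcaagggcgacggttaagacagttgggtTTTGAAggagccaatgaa

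Genes of migrating immature neurons were mostly lower at P0. Of 35 genes, 20 fell, 2 rose and 13 were not called, with a median log2 fold change of -0.37 and no overlap between the ages for 15. Neurod1, a transcription factor of newborn neurons, ranged from 82.1 to 127 CPM at E16 (median 93.6) and from 28.2 to 40.3 CPM at P0 (median 32.5), a change of -1.57 on the log2 scale (standard error 0.123, adjusted p = 2.62e-09). Neurod6, its relative in postmitotic projection neurons, ranged from 836 to 1079 CPM at E16 (median 927) and from 222 to 539 CPM at P0 (median 336), a change of -1.35 on the log2 scale (standard error 0.152, adjusted p = 2.06e-06). Every P0 library was below every E16 library for both genes. Cntn2, an adhesion molecule of growing axons, ranged from 864 to 1084 CPM at E16 (median 933) and from 299 to 428 CPM at P0 (median 373), a change of -1.34 on the log2 scale (standard error 0.09, adjusted p = 1.98e-10). Nrp1, a semaphorin receptor, fell by 1.67 on the log2 scale. Dcx, the microtubule-associated protein of migrating neurons, was called lower at -0.31 (adjusted p = 0.0409), and the call was lost without any of 7 libraries (E16 replicates 1, 2, 4 and 6 or P0 replicates 1, 4 and 6; adjusted p up to 0.123). The 2 genes that rose were Marcks, a substrate of protein kinase C (0.62), and the small GTPase gene Rnd3 (0.49).

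Deep-layer neuron genes gave 12 decreases and 4 increases of 26 tested, with a median log2 fold change of -0.32. Fezf2, which specifies subcortical projection neurons, on chromosome 14 from 12342094 to 12348189, ranged from 144 to 253 CPM at E16 (median 184) and from 33.9 to 57.5 CPM at P0 (median 42.9). The highest P0 library was well below the lowest E16 library (log2 fold change -2.12, standard error 0.138, adjusted p = 1.83e-10). Bcl11b, the factor CTIP2 acting with it, ranged from 123 to 219 CPM at E16 (median 149) and from 31.9 to 57.9 CPM at P0 (median 43.6), a change of -1.77 on the log2 scale (standard error 0.141, adjusted p = 4.34e-09). Crym, which binds thyroid hormone, ranged from 63.7 to 125 CPM at E16 (median 88.8) and from 8.13 to 25.3 CPM at P0 (median 14.7), a log2 fold change of -2.53. Tbr1, a factor of layer 6 neurons, was called at -0.35 (adjusted p = 0.0262), and the call was lost without any of 7 libraries (E16 replicates 1, 2, 3 and 8 or P0 replicates 1, 2 and 5; adjusted p up to 0.0806). The increases were Dkk3, a secreted member of the Dickkopf family (1.87), the layer 5 factor Etv1 (1.57), Lypd1 (1.65) and Thsd7b (1.35, a call lost without P0 replicate 1, adjusted p = 0.0617).

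Upper-layer neuron genes gave 11 increases and 4 decreases of 28 tested, with a median of 0.12. Mef2c, a transcription factor of maturing neurons, on chromosome 13 from 83504034 to 83667080, ranged from 159 to 249 CPM at E16 (median 237) and from 387 to 725 CPM at P0 (median 513). All P0 libraries were above all E16 libraries, and Mef2c was the single projection neuron marker that rose (log2 fold change 1.28, standard error 0.147, adjusted p = 2.49e-06). Cux2 ranged from 139 to 209 CPM at E16 (median 158) and from 166 to 400.3 CPM at P0 (median 218) with overlap (log2 fold change 0.56, standard error 0.161, adjusted p = 0.0126), whereas Rorb, a nuclear receptor of layer 4 neurons, rose by 1.20 without overlap. Bhlhe40, a repressor of the basic helix-loop-helix family, rose by 2.58. The decreases included Lhx2, the corepressor Tle3 (-0.39) and the adhesion protein Mdga1 (-0.30), and for Mdga1 the call was lost without any of 11 libraries (E16 replicates 1, 2, 3, 4, 6, 7 and 8 or P0 replicates 1, 2, 4 and 6; adjusted p up to 0.121). The glutamate transporters of the synaptic vesicle also fell: Slc17a7 (VGLUT1) ranged from 26.4 to 39.2 CPM at E16 (median 33.0) and from 7.07 to 15.8 CPM at P0 (median 9.04), a change of -1.71 on the log2 scale (standard error 0.188, adjusted p = 3.28e-07), and Slc17a6 (VGLUT2) fell by 0.68 with overlap. Emx1, whose regulatory sequence drives Cre in this line, fell by 1.21 on the log2 scale.

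**Figure D4:**
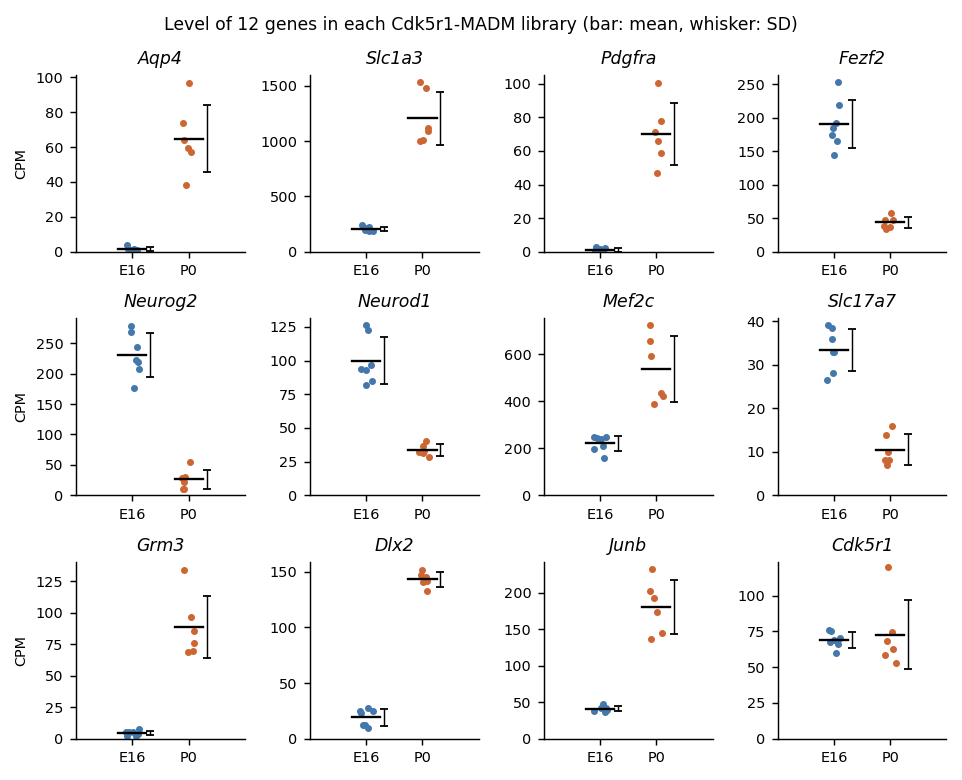
Level in CPM (y axis, linear from 0) of 12 genes in each of the 7 E16 and 6 P0 Cdk5r1-MADM libraries (x axis), with each library as a point, the mean as a bar and the SD as a whisker. Fezf2, Neurog2, Neurod1 and Slc17a7 lie lower in every P0 library, Aqp4, Slc1a3, Pdgfra, Mef2c, Grm3, Dlx2 and Junb lie higher in every P0 library, and the ages overlap for Cdk5r1.

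Receptors for glutamate rose or were not called. Of 22 tested, 11 rose and 11 were not called, with a median log2 fold change of 0.55. Grm3, a metabotropic receptor that astrocytes also carry, ranged from 2.32 to 7.36 CPM at E16 (median 5.11) and from 68.7 to 134 CPM at P0 (median 80.8), a change of 4.29 on the log2 scale (standard error 0.227, adjusted p = 1.74e-11). Grin1, the obligatory subunit of NMDA receptors, ranged from 21.5 to 37.5 CPM at E16 (median 28.5) and from 53.2 to 78.2 CPM at P0 (median 72.8), without overlap, a change of 1.29 on the log2 scale (standard error 0.129, adjusted p = 9.8e-08). Grin3a, a modulatory NMDA subunit, rose by 2.32. Grin2b, the NMDA subunit that predominates before birth, was called at 0.34 (adjusted p = 0.0222) but not without P0 replicate 4 (adjusted p = 0.0514). Grin2a, the subunit that rises later in development, was called at 1.04 (adjusted p = 0.0487) from low levels, and the call was lost without any of 9 libraries (E16 replicates 1, 2, 4, 6 and 7 or P0 replicates 1, 2, 3 and 5; adjusted p up to 0.138).

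Of 17 genes for GABA receptors and chloride transporters, 6 rose and 11 were not called, with a median of 0.24. Slc12a5, the chloride exporter KCC2 of mature neurons, ranged from 3.41 to 6.83 CPM at E16 (median 5.92) and from 9.50 to 24.7 CPM at P0 (median 13.4), a change of 1.43 on the log2 scale (standard error 0.252, adjusted p = 0.00013). The ages did not overlap. Slc12a2, the chloride importer NKCC1, ranged from 14.02 to 23.9 CPM at E16 (median 20.1) and from 14.7 to 31.2 CPM at P0 (median 20.8) and was not called (log2 fold change 0.12, adjusted p = 0.65). Gabrg1, a receptor subunit, rose by 3.92 from levels at or near 0, and Gabbr2, a subunit of the metabotropic GABA receptor, rose by 1.60. Gabra2 was not called, at a log2 fold change of -0.14 (adjusted p = 0.668).

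Synaptic genes moved in both directions. Of 51 presynaptic genes, 14 rose and 9 fell (median 0.24), and of 49 postsynaptic genes, 16 rose and 5 fell (median 0.20). The shares that rose were 27.45% and 32.65%, against 18.7% of all genes tested. The presynaptic share that fell, 17.65%, was near the 15.8% of all genes tested, and the postsynaptic share, 10.2%, was below it. On the presynaptic side the neurexin genes Nrxn3 (2.14) and Nrxn2 (0.64) and the synaptotagmin gene Syt11 (0.75) rose, whereas Rab3a, a GTPase of synaptic vesicles (-0.47), and Snap25, a SNARE protein of vesicle fusion (-0.64), fell. Nrgn, a calmodulin-binding protein of dendritic spines, ranged from 4.00 to 10.5 CPM at E16 (median 8.41) and from 40.6 to 131 CPM at P0 (median 63.5), a change of 3.30 on the log2 scale (standard error 0.279, adjusted p = 1.27e-07). Nptx2, a secreted pentraxin that clusters AMPA receptors, rose by 2.54, while its relative Nptx1 fell by 1.67; the ages did not overlap for either gene. Nlgn3, a neuroligin, rose by 0.76. The other postsynaptic genes that fell were Cnih3, an auxiliary subunit of AMPA receptors (-0.84), the adhesion genes Lrrtm1 (-0.78) and Slitrk1 (-0.45), and the scaffold gene Dlgap4 (-0.43). For Slitrk1, the call was lost without any of 6 libraries (E16 replicates 1, 3, 4 and 8 or P0 replicates 1 and 4; adjusted p up to 0.0664).

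Of 60 genes for sodium, potassium and calcium channels, 14 rose and 12 fell, with a median of 0.18. These shares, 23.3% and 20%, were near those of all genes tested, 18.7% and 15.8%. Kcnma1, the large-conductance calcium-activated potassium channel, ranged from 4.80 to 8.47 CPM at E16 (median 6.11) and from 16.3 to 30.4 CPM at P0 (median 20.5), a change of 1.80 on the log2 scale (standard error 0.211, adjusted p = 7.96e-07), and Kcnd2, a channel of the A-type potassium current, rose by 1.59. Kcnip3, which binds channels of that family, rose by 0.94. Kcng1 (-1.39), the small-conductance channel gene Kcnn2 (-0.75) and Hcn3 (-0.77), a channel opened by hyperpolarization, fell. The sodium channel genes Scn2a (log2 fold change 0.29) and Scn3a (0.06) and the potassium channel gene Kcnq5 (0.17) were not called, with adjusted p values of 0.205, 0.845 and 0.746.

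Axon guidance genes fell more often than they rose, with 30 decreases and 11 increases of 66 tested, a median of -0.27 and 23 genes without overlap. Nrp2, a receptor for class 3 semaphorins, ranged from 45.6 to 64.0 CPM at E16 (median 51.2) and from 5.75 to 18.3 CPM at P0 (median 6.92). P0 replicate 1 was the high P0 library and was still below every E16 library (log2 fold change -2.59, standard error 0.225, adjusted p = 1.9e-08). Nrp1 ranged from 207 to 399.8 CPM at E16 (median 274) and from 76.3 to 109.8 CPM at P0 (median 89.2), a change of -1.67 on the log2 scale (standard error 0.142, adjusted p = 2.34e-08). Flrt1, a transmembrane leucine-rich repeat protein, fell by 1.46. Sema6a, a transmembrane semaphorin, rose by 1.76, Ephb3, an ephrin receptor, by 1.38 and Sema4a by 0.81.

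Cadherins and other adhesion genes rose more often, with 26 increases and 9 decreases of 53 tested and a median of 0.40. Cntn1, a contactin of axons and oligodendrocyte precursors, ranged from 13.2 to 22.9 CPM at E16 (median 16.1) and from 45.4 to 102 CPM at P0 (median 76.7), a change of 2.18 on the log2 scale (standard error 0.177, adjusted p = 5.97e-09). Lsamp, an adhesion protein of the limbic system and cortex, rose by 1.67 and the protocadherin gene Pcdh10 by 1.39, both without overlap. Cntn2 was the largest named decrease, and L1cam, an adhesion molecule of growing axons, ranged from 201 to 227 CPM at E16 (median 214) and from 84.0 to 157 CPM at P0 (median 118), a change of -0.80 on the log2 scale (standard error 0.111, adjusted p = 7.85e-06). Nfasc, which anchors the axon initial segment, fell by 0.59.

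Extracellular matrix genes rose in 55.6% of the list: of 63 tested, 35 rose, 7 fell and 21 were not called, with a median of 0.88. Cspg5, a proteoglycan of neural cells, ranged from 72.3 to 116 CPM at E16 (median 98.1) and from 534 to 817 CPM at P0 (median 594), a change of 2.79 on the log2 scale (standard error 0.131, adjusted p = 2.74e-12). Sparcl1 ranged from 46.1 to 78.2 CPM at E16 (median 53.3) and from 330.3 to 566 CPM at P0 (median 465), and the lowest P0 library was above the highest E16 library (log2 fold change 2.98, standard error 0.127, adjusted p = 3.26e-13). Both genes, and Cspg4, are known in astrocytes or in oligodendrocyte precursors, whose markers rose in the same libraries. The decreases included Gpc2, a glypican of growing neurons (-1.36), the collagen gene Col12a1 (-1.24) and the laminin gene Lamb1 (-0.86).

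Genes for microtubules and neurofilaments gave 21 decreases and 5 increases of 55 tested, with a median of -0.19. Ina, the neurofilament protein internexin, ranged from 256 to 406 CPM at E16 (median 313) and from 118 to 175 CPM at P0 (median 128), a change of -1.20 on the log2 scale (standard error 0.123, adjusted p = 1.62e-07). The P0 libraries were all below the E16 libraries. Nefm (-1.77) and Nefl (-1.49), the medium and light neurofilament genes, also fell. Dpysl5, a collapsin response mediator, fell by 0.54 and Kif21b, a kinesin, by 0.62. The increases were Tubb6 (2.35) and Tubb2a (0.51), both beta-tubulin genes, the doublecortin-like kinase genes Dclk2 (0.45) and Dclk1 (0.64), and Nes, the intermediate filament gene nestin (0.46). Tubulin genes share near-identical coding sequence, so their single values are uncertain.

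Genes of the CDK5 and Reelin pathway showed no common direction. Of 39 tested, 7 rose, 6 fell and 26 were not called, and the median of -0.04 changed sign under several other settings. The shares of 17.95% higher and 15.38% lower were near those of all genes tested, 18.7% and 15.8%. Cdk5 itself ranged from 142 to 192 CPM at E16 (median 173) and from 116 to 172 CPM at P0 (median 162) and was not called (log2 fold change -0.14, adjusted p = 0.259). Cdk5r2, which encodes p39, the other activator of CDK5, ranged from 17.1 to 33.0 CPM at E16 (median 20.3) and from 29.9 to 45.9 CPM at P0 (median 32.6), with P0 replicate 5 the highest and the ages overlapping slightly (log2 fold change 0.57, standard error 0.159, adjusted p = 0.00806). Dab1, the adaptor of the Reelin receptors, ranged from 293 to 377 CPM at E16 (median 354) and from 346 to 638 CPM at P0 (median 373), P0 replicate 4 being far above the other 5, and was not called (adjusted p = 0.0844). The small GTPase gene Rap1b (0.60), the catenin gene Ctnnd2 (0.65) and Pik3r1, a regulatory subunit of PI3 kinase (0.66), rose. Pafah1b3 (-0.68) and Pafah1b2 (-0.53), the catalytic partners of LIS1, and Limk1, a kinase that acts on cofilin (-0.72), fell.

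Immediate early genes rose in 23 of 41 tested, with 3 decreases, a median of 0.69 and 20 genes without overlap. Junb, a component of the AP-1 transcription factor, ranged from 36.9 to 47.3 CPM at E16 (median 42.1) and from 136 to 233 CPM at P0 (median 183). The lowest P0 library was above the highest E16 library (log2 fold change 2.13, standard error 0.118, adjusted p = 9.44e-12). Zfp36, which destabilizes messenger RNA, rose by 2.68 and Ier2 by 1.16. The decreases were the MAP kinase phosphatase gene Dusp4 (-1.43), Ier5 (-1.45) and the chaperone gene Hspa8 (-0.59). These genes respond to tissue dissociation as well as to neuronal activity, and the sources used here give no separate measure of dissociation.

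The cAMP response element (CRE), the letters TGACGTCA, which read the same on both strands and share no match with TTTGAA, was in the 250 bases before the start of 3 of the 16 called-higher immediate early genes with a RefSeq entry (18.8%), namely Btg2, Maff and Ppp1r15a. It was in 5 of the 34 list genes with an entry (14.7%) and in 478 of all 27025 genes (1.77%). CREB is a factor that binds this element. The promoter of Btg2, on the minus strand of chr1:134079156-134079405, is printed with the element in capitals, as the example whose gene is on 2 of the lists. This set was searched after the values were known.
Btg2: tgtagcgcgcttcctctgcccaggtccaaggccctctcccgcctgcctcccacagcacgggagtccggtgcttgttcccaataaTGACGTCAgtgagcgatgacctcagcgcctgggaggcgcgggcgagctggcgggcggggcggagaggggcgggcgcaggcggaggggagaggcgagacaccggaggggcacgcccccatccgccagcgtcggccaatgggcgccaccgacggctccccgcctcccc

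Genes that respond to steroid and thyroid hormone gave 11 increases and 2 decreases of 22 tested, with a median of 0.76. Klf9, a transcription factor induced by both hormones, ranged from 1.44 to 7.18 CPM at E16 (median 3.20) and from 21.2 to 42.2 CPM at P0 (median 29.6), a change of 3.14 on the log2 scale (standard error 0.28, adjusted p = 2.43e-08). Dio2, which converts thyroxine to its active form, ranged from 0.892 to 4.67 CPM at E16 (median 2.32) and from 9.21 to 26.5 CPM at P0 (median 16.7), a change of 2.97 on the log2 scale (standard error 0.304, adjusted p = 1.28e-07). Neither gene had overlapping ages. Fkbp5, a glucocorticoid target, was not called, at a log2 fold change of -0.14 (adjusted p = 0.344). The decreases included Ddit4, an inhibitor of mTORC1 signaling (-0.57).

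RNA-binding regulators of developmental timing gave 12 decreases and 7 increases of 34 tested, with a median of -0.12. Igf2bp1, a fetal RNA-binding protein, ranged from 54.9 to 80.2 CPM at E16 (median 62.6) and from 13.3 to 31.5 CPM at P0 (median 17.8), without overlap, a change of -1.71 on the log2 scale (standard error 0.163, adjusted p = 4.32e-08). Elavl2 fell by 1.17 and Msi1, a Musashi protein of progenitors, by 0.69, whereas its relative Msi2 rose by 0.97. The splicing regulators Qk (1.83) and Nova1 (1.25) rose. Lin28b did not pass the minimum mean count and has no test.

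Metabolic genes were divided by pathway. Of 26 genes of cholesterol synthesis, 15 rose and 1 fell, with a median of 0.39. Insig1, which holds the sterol sensor in the endoplasmic reticulum, ranged from 57.0 to 89.9 CPM at E16 (median 67.1) and from 99.7 to 191 CPM at P0 (median 147), a change of 1.07 on the log2 scale (standard error 0.132, adjusted p = 1.82e-06), and the enzyme genes Msmo1 (0.81) and Mvk (0.72) rose. Fdft1, the squalene synthase gene, was called lower at -0.26, and the call was lost without any of 4 libraries (E16 replicates 2, 3 and 8 or P0 replicate 3; adjusted p up to 0.0698). Of 25 glycolysis genes 5 rose and 5 fell, with a median of -0.20. The share of 20% in each direction was near that of all genes tested, 18.7% higher and 15.8% lower. The increases were Aldoc, the brain aldolase that also marks astrocytes (1.40), the hypoxia-responsive genes Egln3 (0.94) and Vegfa (0.94), Hk1 (0.43) and Pfkp (0.74, not called without P0 replicate 5, adjusted p = 0.0643). The decreases were the enzyme genes Pkm (-0.68), Tpi1 (-0.72), Pfkl (-0.60) and Ldha (-0.37) and the mitophagy gene Bnip3 (-0.47), and for Bnip3 the call was lost without any of 11 libraries (E16 replicates 1, 2, 3, 4, 6 and 8 or P0 replicates 1, 2, 3, 4 and 6; adjusted p up to 0.107).

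Nuclear genes of the respiratory chain changed little, with 8 of 75 lower, 67 not called and a median of -0.09. The lower genes with the smallest adjusted p values were Ndufa6 (-0.29), Cox7c (-0.52) and Uqcrh (-0.31), subunits of the first, the fourth and the third complex. Cytosolic ribosomal protein genes gave 33 decreases and 1 increase of 78 tested, with a median of -0.35 and 24 genes without overlap. Rplp0, of the ribosomal stalk, ranged from 1065 to 1258 CPM at E16 (median 1141) and from 516 to 986 CPM at P0 (median 835), a change of -0.52 on the log2 scale (standard error 0.108, adjusted p = 0.000677), and Rpl13a (-0.9979) and Rps7 (-0.62) fell. The single increase was Rpl34 (1.63). Ribosomal protein genes have many near-identical processed copies, so single values in this list are uncertain.

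Genes of GABAergic interneurons, which in the cortex descend mostly from ventral progenitors that Emx1-Cre does not mark, were also higher at P0. Of 11 tested, 7 rose and 4 were not called, with a median of 2.21, and the summed level was 129 to 289 CPM at E16 and 531 to 764 CPM at P0. Dlx2, a homeobox factor of the interneuron lineage, ranged from 9.86 to 27.6 CPM at E16 (median 22.7) and from 132 to 152 CPM at P0 (median 143), a change of 2.89 on the log2 scale (standard error 0.195, adjusted p = 2.85e-09). Dlx1 rose by 2.38 and Gad2, an enzyme of GABA synthesis, by 2.56. The genes that were not called included markers of cortical interneurons from the medial ganglionic eminence: Sst (log2 fold change -1.02, adjusted p = 0.382), Lhx6 (-0.69, adjusted p = 0.106) and Npy (0.18, adjusted p = 0.776), all chosen after their values were seen, and Maf (adjusted p = 0.0793). Sp8, a zinc finger factor of olfactory bulb interneurons and of interneurons from the caudal ganglionic eminence, ranged from 2.66 to 9.14 CPM at E16 (median 6.34) and from 42.6 to 55.9 CPM at P0 (median 45.7), a change of 2.97 on the log2 scale (standard error 0.207, adjusted p = 3.81e-10).

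The question whether sparse mutant cells changed with age as wild-type cells did was addressed by the test of the difference of the age changes, over 13007 genes. Against control-MADM, 1 gene was called by edgeR (0.00769%), 936 genes had an unadjusted p under 0.05, and DESeq2 also called 1. The difference is measured less closely than the age change. In the 3-genotype fit its standard error was 0.387 for Cdk5r2 and 0.302 for Fezf2, against 0.234 and 0.183 for their age changes in control-MADM. The standard errors of their age changes in Cdk5r1-MADM, 0.159 and 0.138, came from the separate fit of the 13 libraries. The 2 fits differ in spread, so these values are not directly comparable with those of the difference. Few calls therefore do not show that the age changes were equal. The control-MADM libraries were of both mitochondrial classes at each age. Of the 4396 genes called in Cdk5r1-MADM that both fits tested, 94.2% had the same sign of age change in control-MADM and 83.7% in KO-Cdk5r1-MADM. These shares include KO-Cdk5r1-MADM E16 replicates 8 to 11 and control-MADM E16 replicate 12, which had high vascular markers. They were not computed without these libraries. Slc1a3 changed by 2.55 in Cdk5r1-MADM and by 2.06 in control-MADM, Fezf2 by -2.12 and -1.92, and Pdgfra by 5.86 and 4.71, all as log2 fold changes. In control-MADM the astrocyte list had a median of 2.76 and the oligodendrocyte list 4.71. Cdk5r2 gave 0.57 and 1.44, a difference of -0.86 (edgeR adjusted p = 0.687).

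The gene called was AA465934, a processed transcript on the plus strand of chromosome 11 from 83291699 to 83294632, the chromosome that carries Cdk5r1 and the MADM cassettes. In the fit over all 3 genotypes, its level in Cdk5r1-MADM ranged from 39.0 to 76.5 CPM at E16 (median 59.8) and from 45.0 to 63.9 CPM at P0 (median 61.4). In control-MADM it ranged from 7.70 to 181 CPM at E16 (median 60.4) and from 2.62 to 12.4 CPM at P0 (median 6.97), and in KO-Cdk5r1-MADM from 26.8 to 80.4 CPM at E16 (median 61.3) and from 10.2 to 92.0 CPM at P0 (median 62.8). All 6 Cdk5r1-MADM libraries at P0 were thus above all 12 control-MADM libraries at P0, whereas the genotypes overlapped at E16. The difference of the age changes was 2.89 on the log2 scale (standard error 0.509, adjusted p = 0.00688). It was no longer called with the control-MADM libraries of the same mitochondrial class alone (2.56, adjusted p = 0.169).

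**Figure D5:**
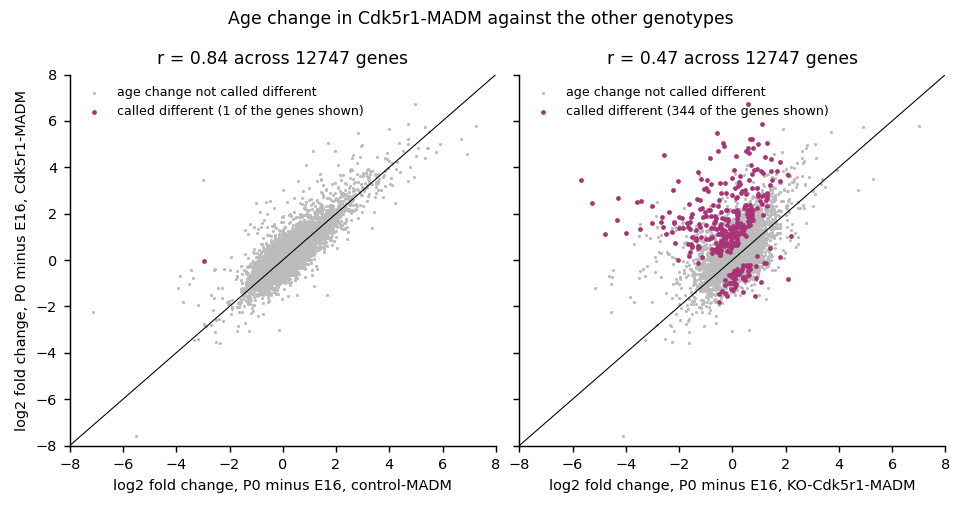
Log2 fold change of P0 over E16 in Cdk5r1-MADM (y axis) against that of control-MADM (left, x axis) and of KO-Cdk5r1-MADM (right, x axis), with each of 12747 genes as a point, genes called for the difference in purple and the line of equal change drawn. The left panel has 1 purple gene, AA465934, and the right panel has 344 of the 355 called. Pearson's r across genes, which are not independent replicates, is 0.84 on the left and 0.47 on the right. These values include libraries of high vascular markers: control-MADM E16 replicate 12, KO-Cdk5r1-MADM E16 replicates 8 to 11 and Cdk5r1-MADM P0 replicate 3. Neither value was computed without them.

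Against KO-Cdk5r1-MADM, 355 of 13007 genes were called for a difference in age change (2.73%), 297 with a higher and 58 with a lower value in Cdk5r1-MADM. All KO-Cdk5r1-MADM libraries belonged to the other mitochondrial class, so that class and the global deletion cannot be told apart. The summed vascular markers of the KO-Cdk5r1-MADM libraries at E16 ranged from 40.6 to 903 CPM, and without the 6 libraries of high vascular markers (KO-Cdk5r1-MADM E16 replicates 8 to 11, control-MADM E16 replicate 12 and Cdk5r1-MADM P0 replicate 3) 8 genes were called, 6 of them among the 355. Those 8 were Frmd6, Rab31, Inka2, Adamts2, Frmd4b, Tor1b, Gabrg3 and Stat5b. Of the 355 genes, 337 were still tested without the 6 libraries, and 334 of these kept the sign of their difference. These genes were chosen in the full fit and the smaller fit reuses its libraries, so the kept signs are not an independent check. In edgeR's test, 1377 of 12877 genes had an unadjusted p under 0.05 without the 6, against 2007 of 13007 with all libraries. The smaller fit holds fewer libraries, so the loss of calls does not show that the differences were absent. The E16 libraries left out were not high in vascular markers alone. Summed erythroid markers were 3154 to 7278 CPM in KO-Cdk5r1-MADM replicates 8 to 11 and 12696 CPM in control-MADM replicate 12. Choroid plexus and ependyma markers summed to 6079 to 7382 CPM in KO-Cdk5r1-MADM replicates 8, 9 and 11 and to 76.6 CPM in replicate 10. In these 4 libraries 63.5% to 66.8% of reads aligned to a single place. The part of other cell types in the 355 calls was otherwise not tested.

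Inka2, which binds and inhibits the kinase PAK4, ranged in Cdk5r1-MADM from 2.80 to 5.50 CPM at E16 (median 5.02) and from 48.1 to 82.3 CPM at P0 (median 52.6) on the scale of the 3-genotype fit. In KO-Cdk5r1-MADM it ranged from 1.77 to 12.7 CPM at E16 (median 8.40) and from 6.37 to 30.0 CPM at P0 (median 17.9). The difference in age change was 2.59 (adjusted p = 0.00166), and 2.38 without the 6 libraries (adjusted p = 0.0229). Stat5b, a transcription factor of cytokine signaling, gave 2.57 with and 2.02 without them (adjusted p = 0.00542 and 0.0474). Sp8 gave 2.61 and 1.79 (adjusted p = 0.00671 and 0.0683), Rin2, an exchange factor for Rab5, 1.98 and 1.45 (adjusted p = 0.00471 and 0.056), and Btg1, an antiproliferative gene, 0.99 and 0.88 (adjusted p = 0.00671 and 0.05).

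In the opposite direction, Frmd6, a FERM-domain protein, ranged from 13.3 to 21.7 CPM at E16 (median 17.1) and from 12.8 to 19.9 CPM at P0 (median 16.8) in Cdk5r1-MADM and from 2.57 to 16.4 CPM at E16 (median 9.88) and from 18.8 to 31.1 CPM at P0 (median 23.3) in KO-Cdk5r1-MADM. Its ages overlapped in Cdk5r1-MADM and did not overlap in KO-Cdk5r1-MADM, and the difference was -1.37 (adjusted p = 0.00671), or -1.41 without the 6 libraries (adjusted p = 0.0056). Frmd4b, of the same domain family, gave -1.16 and -0.90 (adjusted p = 0.00671 and 0.0229). Kcnn3, a small-conductance potassium channel gene, gave -1.13 and -0.85 (adjusted p = 0.0075 and 0.05), the cadherin gene Cdh10 -1.29 and -1.002 (adjusted p = 0.00855 and 0.0747), and Nos1, the neuronal nitric oxide synthase gene, -1.27 and -1.06 (adjusted p = 0.00855 and 0.0747).

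The lists with the most calls for the difference from KO-Cdk5r1-MADM included several marker lists of other cell types, and without the 6 libraries of high vascular markers the listed genes called were Adamts2 and Gabrg3. In the 3-genotype fit, 17 of 66 extracellular matrix genes were called (25.8%, against 2.73% of all genes), with a median log2 age change of 0.86 in the sparse mutant cells and -0.00011 under the global deletion. Without the 6 libraries 1 of 64 was called, Adamts2, and the medians were 0.70 and 0.39. Of the immediate early genes, 6 of 42 were called with all libraries, with medians of 0.81 and -0.19, and 0 of 41 by edgeR without the 6 (11 at an unadjusted p under 0.05), with medians of 0.82 and 0.42.

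Markers of other cell types moved with these calls. Of the interneuron genes 6 of 11 were called, of the oligodendrocyte lineage 5 of 9, of the mural genes 5 of 8 and of the endothelial genes 4 of 5. The median age changes under the global deletion were -0.99, 1.10 (oligodendrocyte lineage), -2.17 and -3.44, against 2.22, 4.73, 1.55 and 1.18 in the sparse mutant cells. The summed interneuron markers were 1044 to 1262 CPM in KO-Cdk5r1-MADM E16 replicates 8 to 11, 99.95 to 240.5 CPM in the other 7 KO-Cdk5r1-MADM libraries at E16 and 337 to 581.5 CPM at P0. The mural sum was 336 to 481 CPM in those 4 libraries, 22.5 to 70.4 CPM in the other 7 and 34.9 to 109 CPM at P0. The interneuron sum was thus higher at P0 than in each of those 7 libraries and lower than in each of the 4. Without the 6 libraries no gene of the interneuron, oligodendrocyte, mural or endothelial lists was called by edgeR. Of the 11, 9, 6 and 4 genes tested there, 3, 3, 4 and 1 had an unadjusted p under 0.05 in edgeR's test. The medians under the global deletion were then 1.40, 3.50, 0.47 and -0.73. In the sparse mutant cells of the same fit they were 2.14, 4.73, 1.865 and 0.22.

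Neurod1 fell by 1.57 in Cdk5r1-MADM and changed by -0.19 in KO-Cdk5r1-MADM, a difference of -1.38 (adjusted p = 0.013), or -1.04 without the 6 libraries (adjusted p = 0.104). Pdgfra differed by 4.79 (adjusted p = 0.013), and by 1.57 without them (adjusted p = 0.578). For deep-layer genes the medians were -0.31 and -0.33, or -0.37 and -0.12 without the 6 libraries.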

How the data were processed

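Sorted GFP+ cells of single cortices gave RNA that was sequenced after SMART-Seq v2 library preparation, without molecular identifiers. The values are, as deposited by the authors, read counts per gene from STAR (alignment to mm10, unstranded column), 1 file per library, neither normalized nor filtered. Tools and build are credited to the submitters' processing notes, which also name R 3.6.1 and bedtools. Without strand, reads of a gene and of an overlapping antisense gene cannot be told apart. Groups followed the deposited genotype and age. Libraries with under 50% uniquely aligned reads were left out, and reads outside genes (15.8% to 20.1% of uniquely aligned reads at P0, 16.1% to 18.9% at E16) stayed out of library sizes and tests. Of 53379 gene identifiers, 53274 matched GENCODE vM21 without their version, a release inferred from this match.

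Genes with a mean count above 10 over the 13 libraries were tested with the quasi-likelihood test of edgeR 4.0.16 (R 4.3.3, TMM scaling, robust), and p-values were adjusted over all genes tested by the method of Benjamini and Hochberg. Standard errors were calculated back as the absolute log2 fold change over the square root of the F statistic. They are approximate for genes with few counts. Differences between age changes came from 1 fit over the 6 groups of 3 genotypes at E16 and P0 (12 and 12 libraries of control-MADM, 11 and 10 of KO-Cdk5r1-MADM). CPM of that fit and of the 13-library fit differ slightly in scale. Alternatives used DESeq2 1.42.0, other scaling and filters, covariates, thinned counts and the omission of libraries. In counts simulated for P0 against E16 over 12821 genes, 68, 66 and 66 genes were changed by 0.5, 1 and 2 on the log2 scale. Of these, edgeR recovered 35.3%, 74.2% and 100%. Far fewer genes were changed there than the 4418 called in the data, so recovery in the data can differ. No 2 libraries of a group were alike within sampling noise. Lower read totals widen the counting error of low genes, and a level of 3 counts was taken as the floor of a library.

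The libraries, gene lists and tests were chosen with earlier results of these data known. Genes named were Cdk5r1, for each direction the 8 protein-coding genes of smallest adjusted p among those over 1 on the log2 scale, up to 3 called genes per direction of each list, a list of 35 genes by name, and the leading genes of each difference between genotypes. Named after their values were seen were Neurog1, Cdk1, Ccnb2, Cdk6, E2f2, Chd7, Thsd7b, Mdga1, Dlgap4, Slitrk1, Tubb2a, Nes, Hk1, Pfkp, Ldha, Bnip3, Gpr17, Sox10, Mbp, Apoe, Sst, Lhx6, Npy, Maf, Nefm, Nefl, Rgs5, Acta2, the 5 further promoter matches of cell cycle genes, Maff, Ppp1r15a and the genes called without the libraries of high vascular markers. Some genes that this rule takes are not reported here. Of the listed genes, 4 had no entry in the count tables under their symbol. Promoters came from RefSeq on GRCm38.p6.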

Additional observations from a re-analysis of the deposited data

Results flagged for a closer look

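Within the Cdk5r1-MADM groups, 44 of 428 checks found a library far from the others of its age, where chance flags about 1 in 20. In P0 replicate 4, the library apart on the second principal component, the levels were 44.6 CPM for AA465934 and 50.2 CPM for Sox10 and 573 CPM for Tubb2a, all lowest, and 317 CPM for Btg1, 126 CPM for Ccnd1, 120.1 CPM for Cdk5r1, 441 CPM for Ctnnd2, 638 CPM for Dab1, 501 CPM for Dclk1, 225 CPM for Dkk3, 435 CPM for Nrxn2 and 154 CPM for Rap1b, all highest. In P0 replicate 3, Esam was at 50.9 CPM, the summed endothelial markers at 605 CPM and the summed vascular markers at 845 CPM, all highest. P0 replicate 5 was highest for Cdk5r2 (45.9 CPM), Kcng1 (12.3 CPM), Npy (211 CPM) and the summed interneuron markers (764 CPM), and lowest for Ephb3 (40.2 CPM) and Hspa8 (70 CPM). P0 replicate 1 was highest for Lhfpl3 (33.0 CPM), Nrp2 (18.3 CPM), Vegfa (20.8 CPM) and Nes (191 CPM), and P0 replicate 6 for Fkbp5 (44.9 CPM).

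At E16, replicate 4 was highest for Aqp4 (3.60 CPM), Cdh10 (32.7 CPM), Dio2 (4.67 CPM), Mki67 (20.1 CPM) and Rgs5 (6.11 CPM). Replicate 2 was highest for Bcl11b (219 CPM), Esam (6.02 CPM) and Pfkl (230.3 CPM). Replicate 7 was highest for Gfap (15.7 CPM), Rpl13a (141 CPM), Rps7 (175 CPM) and the summed choroid plexus and ependyma markers (316 CPM), and lowest for Bnip3 (10.3 CPM). Replicate 8 was highest for Olig2 (54.9 CPM), replicate 6 was highest for Tubb6 (10.8 CPM) and lowest for Sox2 (58.5 CPM), replicate 1 was lowest for Sema6a (22.4 CPM), and replicate 3 was lowest for the summed erythroid markers (1.05 CPM).

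The age change differed from that of control-MADM for 1 gene, AA465934, by 2.89 on the log2 scale. AA465934 was not called with control-MADM of the same mitochondrial class alone or with the replicate block. The age change differed from that of KO-Cdk5r1-MADM for 355 genes, of which Inka2 (2.59), Stat5b (2.57), Sp8 (2.61), Rin2 (1.98), Btg1 (0.99), Frmd4b (-1.16), Frmd6 (-1.37), Kcnn3 (-1.13), Cdh10 (-1.29) and Nos1 (-1.27) had the smallest adjusted p values in the 2 directions, all in edgeR's test of the difference itself. Without the 6 libraries of high vascular markers 8 genes were called, and of the genes named here these included only Inka2, Stat5b, Frmd4b and Frmd6.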

How the results depend on the processing

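Of 202 named genes, 99 kept their direction and their side of the threshold under every alternative run. The count of genes called between P0 and E16, 4418, was between 3489 and 4945 with DESeq2, RLE scaling, no mean-count minimum, the replicate block, the share of reads outside genes, sex, thinned counts or no library of high vascular markers, and between 3883 and 4485 when 1 library was left out. It was 1619 with the E16 library of low alignment kept (77.8% of calls higher, against 54.3%), 2648 with all 3 genotypes in 1 fit and 1295 with a log2 fold change above 1 required as well. The difference from control-MADM was called for 0 genes with the replicate block (AA465934 2.65, adjusted p = 0.0792) or with control-MADM of the same mitochondrial class, and for 1 gene in every fit without 1 library. The difference from KO-Cdk5r1-MADM was called for 544 genes with DESeq2, 181 with no mean-count minimum, 556 with no alignment minimum, 141 with thinned counts, 8 without the libraries of high vascular markers, and 156 to 487 when 1 library was left out (156 without Cdk5r1-MADM P0 replicate 1, 197 without KO-Cdk5r1-MADM E16 replicate 11). It was also below 236 without Cdk5r1-MADM E16 replicates 1 (228) or 6 (217), Cdk5r1-MADM P0 replicate 3 (214), KO-Cdk5r1-MADM P0 replicate 5 (229) or KO-Cdk5r1-MADM E16 replicates 9 (219) or 10 (230). The cause of these shifts was not tested.

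Among uncalled genes the sign turned for AA465934 (0.0552 with no alignment minimum, 0.0218 with the replicate block, and -0.131 to 0.00923 without 1 library, above 0 without E16 replicate 1, E16 replicate 7 or P0 replicate 4), Cdk5 (0.0280, no alignment minimum), Cdk5r1 (-1.10, no alignment minimum, and -0.130 to 0.161 without 1 library, the lowest without P0 replicate 4), Gabra2 (-0.224 to 0.130 without 1 library, above 0 without E16 replicate 6), Kcnq5 (-0.27, replicate block), Npy (-0.26, replicate block, and -0.264 to 0.342 without 1 library, below 0 without P0 replicate 5), Scn3a (-0.0286 without P0 replicate 3, the library of high vascular markers, and -0.0286 to 0.194 without 1 library, below 0 also without E16 replicate 3 or P0 replicate 4) and Slc12a2 (-0.0187 without P0 replicate 3, and -0.0187 to 0.214 without 1 library). Of called genes, Kcnma1 (-0.46) and Pfkp (-2.43) turned with no alignment minimum. Correlations of deviations between libraries of the same number were 0.0018 to 0.068, and 1 of 5 correlated best with its own number, so the numbers were not taken as pairs; with the replicate block 3489 genes were called. In the simulated counts, log2 changes of 0.5 were often not called. Changes of that size, and changes of genes with a few counts per library, can be missed in the data too.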

Other observations

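At E16, 1 further Cdk5r1-MADM library, replicate 5, entered no comparison. It had 615516 reads on genes, 22.4% of its reads aligned to a single place, and 60.2% of those lay outside genes.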
